A study of Saccharomyces cerevisiae with 18 samples.

Results

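The 7 genes of histidine biosynthesis in budding yeast, *HIS1* to *HIS7*, were followed in 3 strains and 2 media. They were chosen by name from the 7126 genes of the count table, with earlier results of these data known, so the counts of how many of the 7 changed are a description. Messenger RNA had been sequenced from cultures of haploid *Saccharomyces cerevisiae* of the BY4741 background, 3 replicates of each of 6 groups and 18 libraries in all. The study asked how the phosphorylation state of Hcm1, a forkhead transcription factor of the cell cycle, bears on gene expression in chronic stress. The strains differed in the *HCM1* allele on a *URA3* centromeric plasmid, which carried WT *HCM1*, *hcm1-3N* or *hcm1-8E*, each with a 3V5 tag and under the *HCM1* promoter. The *hcm1-3N* allele cannot be phosphorylated at a degron, and in *hcm1-8E* the transactivation domain mimics phosphorylation by CDK. Control cultures grew in synthetic dextrose medium without uracil, and the LiCl cultures in the same medium with 150 mM LiCl, each for 40 hours.

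All 6 groups shared the rest of the genotype, which was *MATa his3delta1 ura3delta0 leu2delta0 lys2delta0*, with the genomic *HCM1* behind a galactose-inducible promoter that dextrose shuts off (*HIS3MX6-GAL1p-HCM1-3HA-KanMX*) and a GFP cassette on chromosome VI (*Hyg-TEFp-GFP*). The labels therefore give the same *his3* allele to every strain, although *HIS3* had been described as a marker that differs between the strains when the genes were chosen. No source used here gives the amount of histidine in the medium, or says whether the 3 cultures of a group came from separate transformants, so p-values measure the spread between these cultures only.

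Histidine is made from phosphoribosyl pyrophosphate (PRPP) and ATP in a chain of steps that releases AICAR, an intermediate of purine synthesis, on the way. In yeast most genes of the pathway belong to general amino acid control, in which amino acid shortage raises translation of the activator Gcn4. Bas1 and Pho2, which also activate the purine genes, take part in the control of some of them. The genes lie apart on 6 chromosomes, each with a single coding exon and no overlapping gene in the RefSeq annotation of build R64. *HIS1* (YER055C) is at chrV:264892-265785, *HIS2* (YFR025C) at chrVI:203743-204750, *HIS3* (YOR202W) at chrXV:721946-722608 and *HIS4* (YCL030C) at chrIII:65934-68333. *HIS5* (YIL116W) is at chrIX:142928-144085, *HIS6* (YIL020C) at chrIX:314035-314820 and *HIS7* (YBR248C) at chrII:714807-716465.

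The upstream sequences are shown because most of the members hold the same short motif there. The 500 bases before each start codon were searched on both strands for TGACTC, the core that Gcn4 binds and that Bas1 also recognizes. At least 1 match was found before 6 of the 7 genes (85.7%), and at least 2 before 5 of the 7, against 759 of 6019 protein-coding genes (12.6%) with a match and 86 (1.43%) with at least 2. Each line gives 1 match from RefSeq build R64, read 5′ to 3′ on the strand of the gene, with the motif in capitals, as TGACTC or as its reverse complement GAGTCA. The first and second windows of *HIS4* overlap.
HIS1 at chrV:266052-266077, minus strand: gataacagcgTGACTCttcccggaaa
HIS1 at chrV:265953-265978, minus strand: gcttccaagtGAGTCAcctctaccgt
HIS3 at chrXV:721650-721675, plus strand: tgagcgctagGAGTCActgccaggta
HIS3 at chrXV:721814-721839, plus strand: acctagcggaTGACTCtttttttttc
HIS4 at chrIII:68573-68598, minus strand: gcagtcgaacTGACTCtaatagtgac
HIS4 at chrIII:68561-68586, minus strand: actctaatagTGACTCcggtaaatta
HIS4 at chrIII:68517-68542, minus strand: ccatgcacagTGACTCacgttttttt
HIS5 at chrIX:142561-142586, plus strand: ttcaaaaaagGAGTCAagcattgaaa
HIS5 at chrIX:142609-142634, plus strand: taattgttagGAGTCAattgtttttt
HIS5 at chrIX:142716-142741, plus strand: ttggatctgtTGACTCacttcaattg
HIS6 at chrIX:314899-314924, minus strand: ctagtgtgcaGAGTCAtacggaataa
HIS7 at chrII:716680-716705, minus strand: aaaaaaaattGAGTCAtatcgtagct
HIS7 at chrII:716594-716619, minus strand: catgagaaaaGAGTCAgacatcgaaa

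The matches began between 94 bases before the start codon, in *HIS6*, and 357 bases before it, in *HIS5*. *HIS2* had 0 matches, which says only that these 6 letters are not in that window. Among 22 other genes known as Gcn4 targets, 17 (77.3%) had a match, and among 23 genes of pathways linked to histidine, 12 (52.2%) had one. A match is a sequence and was not tested for binding.

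The libraries held 18816441 to 21851012 counts, at which 3 counts of a gene are 0.137 to 0.159 per 1000000 counts, before TMM scaling. The unit CPM, used below, gives counts per 1000000 counts of the library after TMM scaling. *HCM1* itself, counted from all its copies together, was at 299 ± 21.9 CPM (mean ± SD, n = 3 libraries), 244 ± 4.89 and 238 ± 16.3 in the control libraries of WT, *hcm1-3N* and *hcm1-8E*, and at 399 ± 64.2, 251 ± 55.1 and 147 ± 14.6 in LiCl. The deleted *LEU2* and *LYS2* were at 0 in every library. Markers of the labelled mating type were present, with the sum of 5 MATa genes at 1759 to 2658 CPM. The sum of 3 MATalpha marker genes was 9.54 to 44.3 CPM, with 0 of the 3 at 0, and it was highest in *hcm1-3N*, at 17.0 to 23.4 in control medium and 31.9 to 44.3 in LiCl, against 12.0 to 14.4 and 15.4 to 17.4 in WT and 12.8 to 13.8 and 9.54 to 11.3 in *hcm1-8E*. Whether this bears on the differences between strains was not tested.

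All 7 genes passed the filter on low counts and were above the floor in every library, with between 409 counts, for *HIS6*, and 28472 counts, for *HIS4*. On the TPM scale, which divides by gene length, *HIS1* ranked the highest and *HIS4* next in 18 of 18 libraries. In libraries of whole cultures, fewer cells that express a gene and less RNA of it per cell cannot be told apart. *HIS5* came next in 14 libraries and *HIS3* in the other 4, and the lowest was *HIS6* in 12 libraries and *HIS2* in 6. If the labelled allele was present, the level of *HIS3* is understated by an amount not known here. TPM uses the length of the whole gene, and *his3delta1* is a known internal deletion between HindIII sites. Such sites were found at positions 305 and 495 of the 663 bases of the reading frame, 190 bases apart (28.7% of it). The counts hold no read positions, so the deletion itself was not checked, and the *HIS3MX6* cassette carries a gene of another yeast that the annotation does not hold.

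*HIS1* encodes ATP phosphoribosyltransferase, which carries out the first step and is inhibited by histidine. In replicates 1, 2 and 3 of the control libraries it was at 440.1, 375 and 416 CPM in WT, at 308, 262 and 280.0 in *hcm1-3N* and at 371, 395 and 404 in *hcm1-8E*. In LiCl it was at 662, 521 and 468 CPM in WT, at 469.9, 388 and 448 in *hcm1-3N* and at 802, 547 and 519 in *hcm1-8E*. The *hcm1-3N* control libraries lay below all others, and the other 5 groups, ordered by their means, each overlapped the next.

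*HIS4* encodes a protein with 3 activities, for the steps after *HIS1* and for the last step. Its control libraries were at 615, 495 and 548 CPM in WT, at 359.9, 325 and 321 in *hcm1-3N* and at 488, 445 and 453 in *hcm1-8E*. In LiCl the values were 693, 893 and 737 CPM in WT, 418, 636 and 577 in *hcm1-3N* and 881, 1131 and 1252 in *hcm1-8E*. Its range was the widest of the 7 genes, 3.91-fold between the lowest and the highest library. The *hcm1-3N* control group was again the lowest without overlap, and within LiCl the *hcm1-3N* libraries lay below all those of the other strains.

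*HIS6* encodes the isomerase that acts next, and it was among the least expressed members. It was at 43.6, 29.6 and 31.0 CPM in WT, 24.0, 22.5 and 23.3 in *hcm1-3N* and 37.9, 34.2 and 35.0 in *hcm1-8E* in control medium. In LiCl it was at 47.2, 35.5 and 33.7 CPM in WT, 32.8, 26.1 and 28.8 in *hcm1-3N* and 47.8, 30.1 and 37.1 in *hcm1-8E*. Replicate 1 was the highest of its group in 6 of 6 groups, and the *hcm1-3N* control libraries lay below all others.

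*HIS7* encodes the enzyme that takes nitrogen from glutamine, closes the imidazole ring and releases AICAR. The WT libraries were at 151, 131 and 137 CPM in control medium and 168, 152 and 130.2 in LiCl, and overlapped. Those of *hcm1-3N* were at 87.4, 83.5 and 82.2 and then at 128, 124 and 96.4, and those of *hcm1-8E* at 91.6, 98.0 and 112 and then at 185, 166 and 155. Both mutants were thus below WT in control medium without overlap, and higher in LiCl than in control medium without overlap.

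*HIS3* encodes imidazoleglycerol-phosphate dehydratase, and by the labels the allele measured here was the deleted one. In control medium it was at 124, 125 and 126 CPM in WT, 52.0, 55.7 and 53.2 in *hcm1-3N* and 78.7, 79.4 and 85.8 in *hcm1-8E*. In LiCl it was at 142, 136 and 117 CPM in WT, 84.3, 91.1 and 75.8 in *hcm1-3N* and 171, 120.4 and 121 in *hcm1-8E*. The 3 strains did not overlap in control medium, whereas in LiCl WT and *hcm1-8E* overlapped and *hcm1-3N* stayed below both.

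*HIS5* encodes histidinol-phosphate aminotransferase. The control libraries were at 166, 155 and 175 CPM in WT, 135, 130.4 and 126 in *hcm1-3N* and 154, 165 and 167 in *hcm1-8E*. In LiCl the values were 242, 277 and 231 CPM, 171, 189 and 241, and 323, 269 and 277 in the same order of strains. Each strain was higher in LiCl without overlap, and WT and *hcm1-8E* overlapped in control medium.

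*HIS2* encodes histidinol-phosphate phosphatase, and it was the member whose levels went the other way in LiCl against control medium. In control medium it was at 60.8, 64.8 and 61.8 CPM in WT, 44.7, 49.1 and 51.2 in *hcm1-3N* and 57.7, 63.8 and 60.3 in *hcm1-8E*. In LiCl it was at 38.2, 41.6 and 36.8 CPM in WT, 38.0, 37.8 and 40.8 in *hcm1-3N* and 46.5, 41.9 and 46.6 in *hcm1-8E*. The LiCl libraries of every strain lay below its control libraries.

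**Figure D1:**
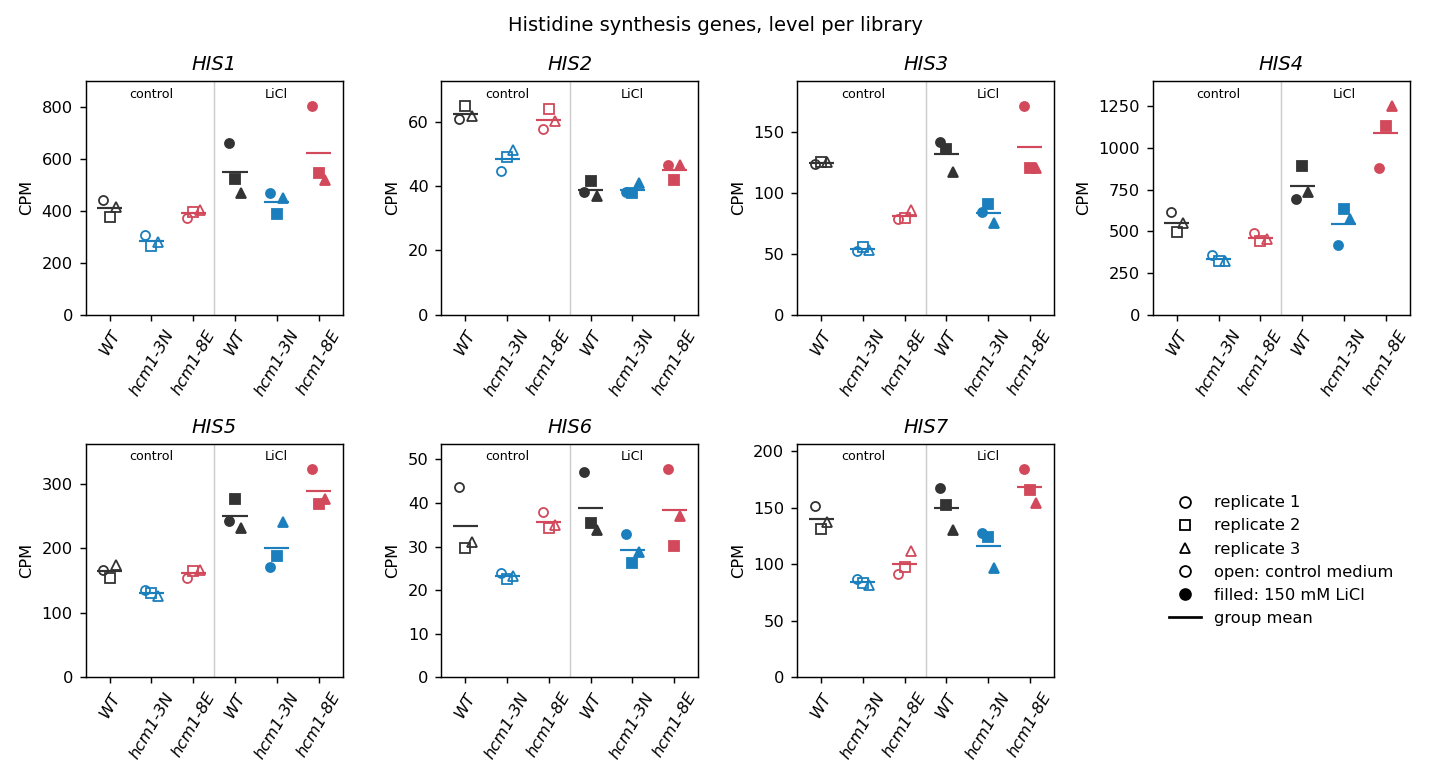
Level of each *HIS* gene in the 18 libraries, in CPM on a linear axis from 0, by strain and medium, with open points for control medium, filled points for LiCl, a symbol for each replicate number and lines for the group means. The lowest group is *hcm1-3N* in control medium for 6 of the 7 genes, while *HIS2* is lower in LiCl than in control medium in each strain.

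LiCl was compared with control medium within each strain, which gives the response of the pathway to prolonged ionic stress. In WT, *HIS4* rose by 0.49 ± 0.16 and *HIS5* by 0.60 ± 0.12 on the log2 scale (estimate ± SE, 3 libraries a group, as in all values below), and *HIS2* fell by 0.69 ± 0.08. The adjusted p-values, from edgeR's quasi-likelihood test and over all 6239 genes tested, were 0.0287, 0.00181 and 6.67e-05. These members stand beside 16.5% of all genes that rose and 13.9% that fell. Libraries of the 2 media did not overlap for 4 of the 7 members, as for 45.3% of all genes. *HIS1* had a value of 0.42 ± 0.16 (adjusted p = 0.0539), *HIS6* of 0.16 ± 0.18 (0.529), *HIS7* of 0.10 ± 0.12 (0.561) and *HIS3* of 0.08 ± 0.12 (0.676). With the replicate number as a block, *HIS1* also rose (adjusted p = 0.00877), which makes 3 members that rose beside 26.0% of all genes. It passed without the block as well once WT LiCl replicate 3 was left out (0.0357). The call of *HIS4* was lost without WT control replicate 2 (adjusted p = 0.128), WT control replicate 3 (0.0775) or WT LiCl replicate 2 (0.114), and in a fit of the 2 WT groups alone (0.0568).

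In *hcm1-3N*, 5 members rose and 1 fell, beside 5.16% of all genes that rose and 5.18% that fell. *HIS4* rose by 0.70 ± 0.16 (adjusted p = 0.0140), *HIS3* by 0.64 ± 0.13 (0.00889), *HIS1* by 0.62 ± 0.16 (0.0253), *HIS5* by 0.62 ± 0.12 (0.00836) and *HIS7* by 0.46 ± 0.12 (0.0319), and *HIS2* fell by 0.31 ± 0.08 (0.0265). *HIS6* had a value of 0.33 ± 0.18 (adjusted p = 0.226), and passed with the replicate block (0.0303), under which 20.1% of all genes rose. The libraries of the 2 media did not overlap for any of the 7 members, as for 31.3% of all genes. None of these calls held in a fit of the 2 *hcm1-3N* groups alone, where the adjusted p-values of the 6 members were 0.0899 to 0.170. With all groups in the fit, *HIS3* and *HIS5* kept their calls without any single library, but not without replicate 2, or without replicate 3, in all groups. Without replicate 1 in all groups, 6 members passed, beside 1949 of the 6239 genes tested. *HIS1* lost its call without control replicate 2 (adjusted p = 0.120), control replicate 3 (0.0863) or LiCl replicate 1 (0.107), and *HIS4* without control replicate 2 (0.0629), control replicate 3 (0.0625) or LiCl replicate 2 (0.0687). The call of *HIS2* was lost without control replicate 2 (0.0949) or 3 (0.111) or LiCl replicate 1 (0.0734) or 2 (0.0861), and that of *HIS7* without any library but LiCl replicate 3, with adjusted p-values of 0.0505 to 0.152.

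In *hcm1-8E*, again 5 members rose and 1 fell, beside 17.1% of all genes that rose and 12.5% that fell. *HIS4* rose 2.35-fold (1.24 ± 0.16 on the log2 scale, adjusted p = 0.000122), *HIS5* by 0.84 ± 0.12 (0.000230), *HIS3* by 0.76 ± 0.13 (0.000703), *HIS7* by 0.74 ± 0.12 (0.000759) and *HIS1* by 0.68 ± 0.16 (0.00590). *HIS2* fell by 0.43 ± 0.08 (adjusted p = 0.00163), and *HIS6* had a value of 0.10 ± 0.18 (0.693). Groups did not overlap for 6 of the 7 members, as for 44.5% of all genes. All 6 calls held when any single library was left out. When a replicate number was left out of all groups, only *HIS4* and *HIS5* kept their calls in each of the 3 fits. In a fit of the 2 *hcm1-8E* groups alone *HIS1* was no longer called (adjusted p = 0.0561).

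In the fit of all groups without the block, *HIS4* and *HIS5* rose and *HIS2* fell in all 3 strains. *HIS1*, *HIS3* and *HIS7* passed that test in the mutants and not in WT. *HIS1* in WT was near the threshold (adjusted p = 0.0539) and passed with the replicate block (0.00877). In fits of the compared groups alone, the calls of *hcm1-3N*, of *HIS4* in WT and of *HIS1* in *hcm1-8E* were lost. The median of the 7 log2 fold changes was 0.16, 0.62 and 0.74 for WT, *hcm1-3N* and *hcm1-8E*, beside 0.02, 0.01 and 0.03 over all genes tested. Without *HIS3*, the medians were 0.29, 0.54 and 0.71.

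**Figure D2:**
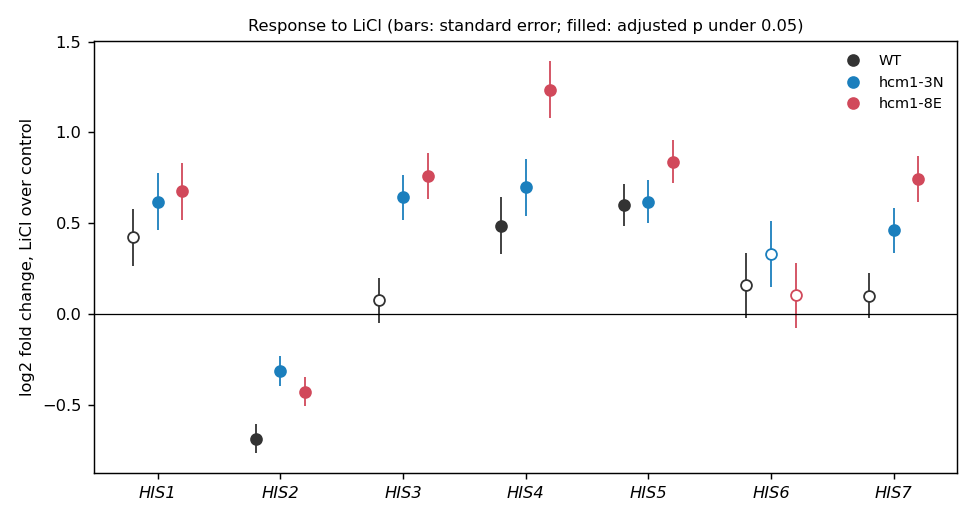
Log2 fold change of each *HIS* gene in LiCl over control medium, for WT, *hcm1-3N* and *hcm1-8E*, with bars for the standard error and filled points for an adjusted p under 0.05. *HIS2* is below 0 in all strains, *HIS4* reaches 1.24 in *hcm1-8E*, and the points of *HIS3* and *HIS7* in WT are open, at 0.08 and 0.10.

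The differences between these responses were tested themselves, as the interaction of strain and LiCl. 0 of the 7 members passed, beside 0.0% of all genes, in each of the 3 comparisons. With the replicate block 0 members passed as well, beside 0.641%, 0.337% and 0.192% of all genes for *hcm1-3N* against WT, *hcm1-8E* against WT and *hcm1-3N* against *hcm1-8E*. At an unadjusted p under 0.05, edgeR counted 2, 4 and 1 members in the same order, beside 11.3%, 10.3% and 8.99% of all genes. DESeq2's Wald test called 1, 2 and 0 members after adjustment, beside 130, 83 and 46 of the 6239 genes tested. The response of *HIS3* was 0.57 ± 0.18 higher on the log2 scale in *hcm1-3N* than in WT (adjusted p = 0.225) and 0.68 ± 0.18 higher in *hcm1-8E* than in WT (0.300). That of *HIS2*, which fell in each strain, was 0.37 ± 0.11 higher than in WT in *hcm1-3N* (0.225) and 0.26 ± 0.11 higher in *hcm1-8E* (0.462). For *hcm1-8E* against WT, the difference was 0.75 ± 0.22 for *HIS4* and 0.64 ± 0.18 for *HIS7* (adjusted p = 0.300 for both). Since the WT libraries enter both comparisons, these values are not independent of each other. A stronger response of *HIS1*, *HIS3* or *HIS7*, or a weaker fall of *HIS2*, in the mutants was therefore not shown.

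In control medium, the strains were compared to see whether the *HCM1* allele alone goes with a difference in the pathway. All 7 genes were lower in *hcm1-3N* than in WT without overlap between the libraries, as for 35.4% of all genes in either direction, and 4 of them passed the test, beside 3.45% of all genes lower in *hcm1-3N*. *HIS3* differed the most, with WT 2.33-fold higher (1.22 ± 0.13 on the log2 scale, adjusted p = 0.000656), above 99.9% of all genes in this comparison. WT was also higher for *HIS7* by 0.73 ± 0.12 (adjusted p = 0.00430), *HIS4* by 0.72 ± 0.16 (0.0126) and *HIS2* by 0.37 ± 0.08 (0.0131). The values of *HIS6*, 0.58 ± 0.18 (adjusted p = 0.0622), *HIS1*, 0.53 ± 0.16 (0.0523), and *HIS5*, 0.34 ± 0.12 (0.0875), did not pass. With the replicate block all 7 passed, beside 11.4% of all genes, with adjusted p-values of 0.00303, 0.00595 and 0.0468 for these 3. The calls of *HIS3* and *HIS7* held without any single library, but not without replicate 2, or without replicate 3, in all groups. Without replicate 1 in all groups, 7 members passed, beside 1113 of the 6239 genes tested. With single libraries left out, the call of *HIS2* was lost without WT replicate 2 (adjusted p = 0.0564) or *hcm1-3N* replicate 1 (0.0593). That of *HIS4* was lost without WT replicate 1 (0.0513) or *hcm1-3N* replicate 3 (0.0610).

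Because *HIS3* had the largest of these differences and is a marker locus, the genes that flank it were read as well. *MRM1*, which encodes a methyltransferase of mitochondrial ribosomal RNA, had a value of 0.50 ± 0.25 (adjusted p = 0.251, and 0.0136 with the replicate block), and *DED1*, which encodes an RNA helicase of translation initiation, one of -0.35 ± 0.29 (0.513, and 0.0309 with the block). Without the block, neither was called in any of the 9 comparisons of groups. Their values for WT against *hcm1-8E* were 0.49 ± 0.25 and -0.33 ± 0.29 (adjusted p = 0.450 and 0.743). The neighbours thus had values of opposite sign to each other, that of *MRM1* having the sign of *HIS3*.

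WT was then compared with *hcm1-8E* in the same medium. 0 members passed edgeR's test, beside 0.0641% of all genes, with 2 at an unadjusted p under 0.05, beside 12.5% of all genes. DESeq2's Wald test called 2 members, beside 155 of the 6239 genes tested. The largest values were those of *HIS3*, 0.62 ± 0.13 (adjusted p = 0.132), and *HIS7*, 0.48 ± 0.12 (0.162), and both passed with the replicate block (0.0335 and 0.0459), under which WT was higher for 0.849% of all genes. The other 5 members lay between -0.04 and 0.26. WT and *hcm1-8E* libraries did not overlap for 3 of the 7 genes, *HIS3*, *HIS4* and *HIS7*, each higher in WT, as for 11.7% of all genes in that direction.

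The comparison of *hcm1-3N* with *hcm1-8E* in control medium shares the *hcm1-3N* libraries with the one against WT. All 7 genes were lower in *hcm1-3N* without overlap, as for 14.0% of all genes in that direction, with log2 values from -0.62 to -0.25. Here too 0 passed edgeR's test, beside 0.0641% of all genes, whereas 6 were at an unadjusted p under 0.05, as were 12.8% of all genes. DESeq2's Wald test called 2 members, beside 119 of the 6239 genes tested. With the replicate block 4 passed, beside 2.1% of all genes. These were *HIS6* at -0.62 ± 0.18 (adjusted p = 0.189, and 0.0174 with the block), *HIS3* at -0.60 ± 0.13 (0.0803 and 0.0218), *HIS1* at -0.46 ± 0.16 (0.227 and 0.0422) and *HIS2* at -0.33 ± 0.08 (0.150 and 0.0401).

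In LiCl the strains were compared with each other again, and the 3 comparisons share libraries. The most members were called between the mutants. *HIS4* was 1.00 ± 0.16 lower on the log2 scale in *hcm1-3N* than in *hcm1-8E* (adjusted p = 0.00356), *HIS3* was 0.72 ± 0.13 lower (0.00577), *HIS5* 0.53 ± 0.12 lower (0.0225) and *HIS7* 0.53 ± 0.12 lower (0.0294). These 4 of 7 members stand beside 1.96% of all genes lower in *hcm1-3N*. *HIS1*, at -0.52 ± 0.16 (adjusted p = 0.0985), and *HIS6*, at -0.39 ± 0.18 (0.330), passed with the replicate block (0.0153 and 0.0411), under which 4.9% of all genes were lower in *hcm1-3N*, and *HIS2* was at -0.21 ± 0.08 (0.204). Libraries of *hcm1-3N* lay below those of *hcm1-8E* without overlap for 6 of the 7 genes, as for 7.52% of all genes in that direction, and *HIS6* was the exception. None of the 4 calls held in a fit of these 2 groups alone, where 0 of all genes passed and the adjusted p-values of these members were 0.278 to 0.526. In the fit of all groups *HIS3* and *HIS4* kept their calls without any single library, but not without replicate 2, or without replicate 3, in all groups. Without replicate 1 in all groups, 4 members passed, beside 865 of the 6239 genes tested. *HIS5* lost its call without *hcm1-3N* replicate 1 (adjusted p = 0.0772) or 2 (0.0977) or *hcm1-8E* replicate 1 (0.0516), and *HIS7* without *hcm1-3N* replicate 2 (0.0606) or 3 (0.115) or *hcm1-8E* replicate 1 (0.0782) or 2 (0.0793).

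WT was higher than *hcm1-3N* in LiCl for *HIS3*, by 0.65 ± 0.13 (adjusted p = 0.0293), and this was the single member called, beside 0.401% of all genes higher in WT. That call was lost without any 1 of 5 of the 6 libraries (adjusted p = 0.0723 to 0.151), all but WT replicate 3, and in a fit of the 2 groups alone (0.394). The other 6 members had values of at most 0.51, and 4 of the 7 were higher in WT without overlap, as for 6.22% of all genes in that direction. For WT against *hcm1-8E* in LiCl, edgeR called 0 members, beside 0.0321% of all genes, with 2 at an unadjusted p under 0.05, beside 5.05% of all genes. DESeq2's Wald test also called 0 members, beside 16 of the 6239 genes tested. The 7 values ran from -0.49 for *HIS4* to 0.02 for *HIS6*, and 1 gene, *HIS2*, was lower in WT without overlap, as for 4.25% of all genes in that direction.

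**Figure D3:**
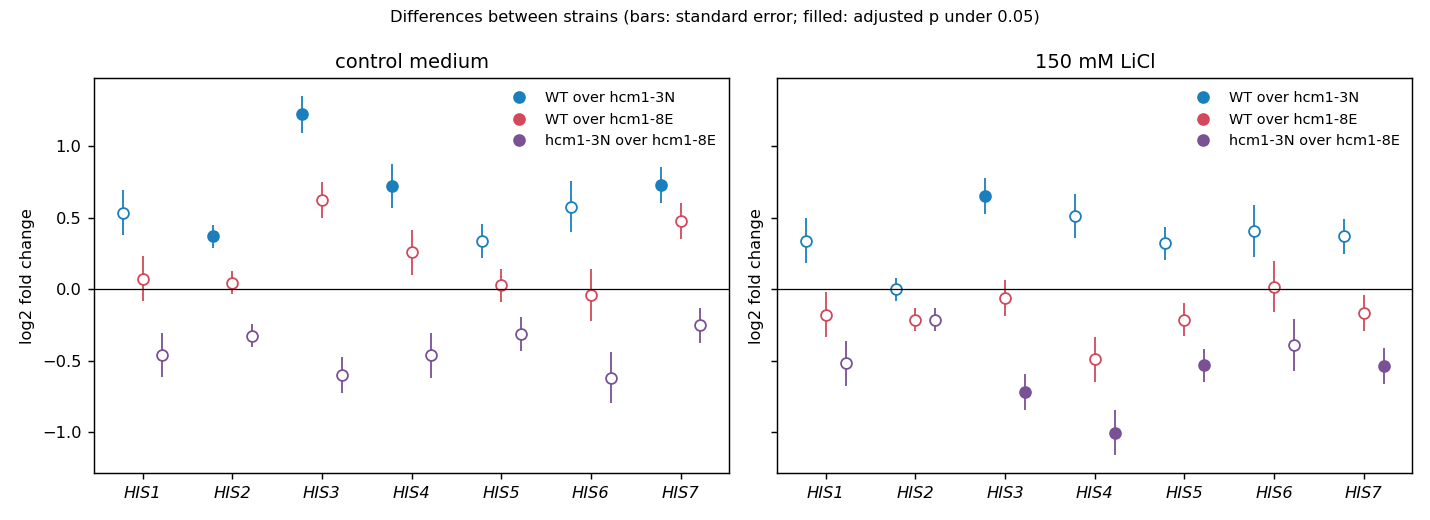
Log2 fold change of each *HIS* gene between strains, in control medium and in LiCl, with bars for the standard error and filled points for an adjusted p under 0.05. WT is above *hcm1-3N* for all 7 genes in control medium, up to 1.22 for *HIS3*, and *hcm1-3N* is below *hcm1-8E* for all 7 genes in both media.

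The members did not all vary alike over the 18 libraries. Pearson's r of log2 CPM was the highest between *HIS3* and *HIS7*, at 0.946, and between *HIS4* and *HIS5*, at 0.910, whereas *HIS2* had values of -0.489 to 0.0489 with the other 6. These points share libraries, groups and replicate numbers. Replicate 1 was the highest of its group in 6 of 6 groups for *HIS6* and in 5 of 6 for *HIS1* and *HIS7*, but in 0 of 6 for *HIS2*.

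Outside the pathway, patterns over the 18 libraries were set beside the mean of the other 6 members, *HIS3* left out, each scaled to z-scores of log2 CPM. This mean includes *HIS2*, with its r of -0.489 to 0.0489 with the other members. The genes most like it were *TRP3*, of tryptophan synthesis (r = 0.977), *ASN1*, an asparagine synthetase (0.969), and *ORT1*, the mitochondrial ornithine transporter (0.967). Next came *PRO2*, of proline synthesis (0.945), and *MET22*, a phosphatase that lithium is known to inhibit (0.941). For *HIS3* they were *ISU2*, an iron-sulfur cluster scaffold (r = 0.963), *PRO2* (0.957), *ORT1* (0.937), *RTG3*, a transcription factor of retrograde signalling (0.934), and *ASN1* (0.915). *PRO2*, *ORT1* and *ASN1* were in both lists.

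Other targets of Gcn4 rose in LiCl as well. Of 22 such genes, of arginine, lysine, leucine, isoleucine, aromatic and threonine synthesis, 17 rose and 0 fell in WT, 12 rose and 0 fell in *hcm1-3N*, and 16 rose and 0 fell in *hcm1-8E*, with median log2 fold changes of 0.82, 0.59 and 0.85, beside 0.02, 0.01 and 0.03 over all genes, of which 16.5%, 5.16% and 17.1% rose. *ARG3*, of arginine synthesis, rose by 1.98 ± 0.45 in WT (adjusted p = 0.00476), 1.65 ± 0.45 in *hcm1-3N* (0.0334) and 1.25 ± 0.44 in *hcm1-8E* (0.0459). *LEU4*, of leucine synthesis, rose by 1.46 ± 0.09 (5.48e-07), 0.95 ± 0.09 (7.07e-05) and 1.58 ± 0.09 (1.83e-07) in the same order, and *ARG1*, also of arginine synthesis, by 1.44 ± 0.19 (0.000145), 1.44 ± 0.19 (0.00126) and 1.43 ± 0.19 (0.000176).

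The same 22 genes were also compared between strains. WT was higher than *hcm1-3N* for 4 of them in control medium (median 0.31), beside 3.45% of all genes, and for 1 in LiCl, beside 0.401%, or 10 with the replicate block, beside 1.86%. In LiCl *hcm1-3N* was lower than *hcm1-8E* for 7 (median -0.50), beside 1.96% of all genes, and for 11 with the block, beside 4.9%.

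Transcripts of the regulators were read beside their targets. *GCN4* messenger RNA rose by 0.47 ± 0.13 in WT (adjusted p = 0.0127) and by 0.51 ± 0.13 in *hcm1-8E* (0.00974), and had a value of 0.13 ± 0.13 in *hcm1-3N* (0.504). In the control libraries it was at -0.20 ± 0.13 for WT over *hcm1-3N* (0.372), opposite in sign to the *HIS* genes. Since Gcn4 is known to be controlled mainly in translation, its transcript level does not measure the protein. *GCN2*, which encodes the kinase that senses uncharged transfer RNA, was at 0.06 ± 0.08, 0.11 ± 0.08 and 0.05 ± 0.08 for the 3 strains in LiCl and was not called.

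*BAS1* was higher in LiCl than in control medium in each same-numbered pair of cultures, but replicate 1 stood apart in every group. In WT it was at 23.0, 8.5 and 9.5 CPM in control medium and 68.4, 22.8 and 31.7 in LiCl, and in *hcm1-8E* at 17.4, 9.0 and 10.9 and then 82.7, 24.4 and 29.6. The values were 1.58 ± 0.63 in WT (adjusted p = 0.0717, and 1.95e-06 with the block), 1.66 ± 0.64 in *hcm1-3N* (0.0973 and 9.38e-06) and 1.87 ± 0.64 in *hcm1-8E* (0.0390). *PHO2* fell by 0.83 ± 0.19 in WT (adjusted p = 0.00480) and by 0.69 ± 0.19 in *hcm1-8E* (0.0137), and had a value of -0.40 ± 0.19 in *hcm1-3N* (0.160, and 0.0124 with the block).

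Genes on either side of the pathway were counted next. Over the linked list of 23 genes, regulators included, 4 rose and 3 fell in WT in LiCl, where 16.5% of all genes rose and 13.9% fell, 1 rose and 1 fell in *hcm1-3N* (5.16% and 5.18% of all genes), and 5 rose and 2 fell in *hcm1-8E* (17.1% and 12.5%). With the replicate block, 7 rose and 10 fell in WT, 2 and 6 in *hcm1-3N*, and 7 and 4 in *hcm1-8E*. In either direction, the block called 3056, 2375 and 3004 of the 6239 genes tested. Among the 5 *PRS* genes, which make PRPP, *PRS5* was called in WT (0.52 ± 0.12, adjusted p = 0.00454), and had values of 0.14 ± 0.12 in *hcm1-3N* (0.414) and 0.27 ± 0.12 in *hcm1-8E* (0.0939, and 0.00379 with the block). *ADE16*, which recycles AICAR into purines, fell in all 3 strains, by 0.77 ± 0.14 in WT (0.00124), by 0.63 ± 0.14 in *hcm1-3N* (0.0143) and by 0.74 ± 0.14 in *hcm1-8E* (0.00179). Of the 10 genes of the purine route, *ADE2* fell by 1.34 ± 0.43 in WT (0.0282), and had values of -0.76 ± 0.42 in *hcm1-3N* (0.232, and 0.000305 with the block) and -0.90 ± 0.42 in *hcm1-8E* (0.122, and 6.18e-05 with the block). *ADE12*, which leads to AMP, rose by 0.55 ± 0.09 in WT (0.000444), by 0.44 ± 0.09 in *hcm1-3N* (0.00945) and by 0.71 ± 0.09 in *hcm1-8E* (8.65e-05). In control medium all 10 had positive values for WT against *hcm1-3N*, as the *HIS* genes did, and also for WT against *hcm1-8E*. Their medians were 0.38 and 0.14, beside 0.002 and -0.007 over all genes. Against *hcm1-3N*, 1 of them, *ADE8*, passed the test (0.42 ± 0.10, adjusted p = 0.0246), beside 3.45% of all genes higher in WT. With the replicate block 4 passed, beside 11.4%. Against *hcm1-8E*, 0 passed, beside 0.0641% of all genes, and 2 with the block, beside 0.849% higher in WT.

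On the side of histidine use, *HIP1*, the histidine permease, rose by 0.62 ± 0.10 in WT (adjusted p = 0.000588) and by 0.35 ± 0.10 in *hcm1-8E* (0.0211), and had a value of 0.12 ± 0.10 in *hcm1-3N* (0.456). *HTS1*, the histidyl-tRNA synthetase, was not called in any of the 9 comparisons of groups. The plasmid marker *URA3* rose in LiCl by 0.74 ± 0.16 in WT (adjusted p = 0.00373) and by 0.76 ± 0.16 in *hcm1-3N* (0.0119), and had a value of -0.08 ± 0.16 in *hcm1-8E* (0.743). In LiCl it was lower in *hcm1-8E* than in WT, by 1.28 ± 0.16 (0.00472), and than in *hcm1-3N*, by 0.81 ± 0.16 (0.0129).

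**Figure D4:**
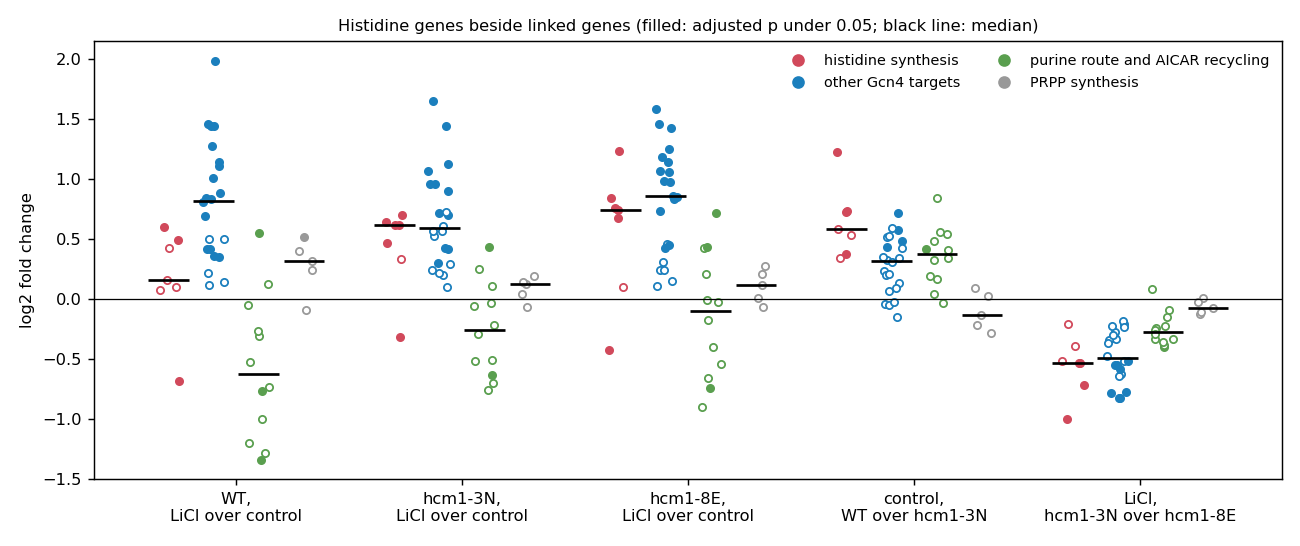
Log2 fold changes of the *HIS* genes, the other Gcn4 targets, the genes of the purine route with AICAR recycling and those of PRPP synthesis, in LiCl over control medium for each strain and in a pair of strain comparisons, with a point for each gene, filled at an adjusted p under 0.05, and a line for the median. The Gcn4 targets are all above 0 in LiCl over control medium, with medians of 0.82, 0.59 and 0.85. Of the 10 genes of the purine route, 2, 3 and 4 are above 0 there, with medians of -0.42, -0.14 and -0.02. The 2 genes of AICAR recycling are below 0 in each strain.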

How the data were processed

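Polyadenylated RNA was sequenced in paired ends from 18 cultures, and the authors aligned the reads to the R64-1-1 genome and counted exon fragments per gene with featureCounts. The counts were deposited as raw whole numbers, and whether counting used the strand is not given in the sources used here. The TPM deposited by the authors take account of gene length and sum to the same total in each library. Groups were taken from the sample labels. The 6 groups were fitted in 1 model of the 18 libraries in edgeR 4.0.16 under R 4.3.3 (TMM, filterByExpr by group, robust quasi-likelihood test), with Benjamini-Hochberg adjustment over the 6239 of 7126 genes tested and a threshold of 0.05. CPM carry the TMM factors, and correlations used log2 CPM with a prior count of 2. Library totals had a median of 21695332 counts.

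Same-numbered libraries were taken as pairs in the fit with a replicate block, because the deviations from the group means correlated in each of 45 same-numbered pairs (r = 0.237 to 0.890, mean 0.523). The numbers come from the sample titles, which do not say that these cultures were grown together.

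Members and lists were chosen with earlier results of these data known. Named by rule were the 7 members, *HCM1*, *GCN4*, *BAS1*, *PHO2*, the neighbours of *HIS3*, the 5 genes most alike in pattern, and in each list and LiCl comparison the 2 genes with the largest change past the threshold, of which 1 is not reported here. *PRS5*, *ADE8*, *GCN2*, *HIP1*, *HTS1* and *URA3* were named from the lists after their values were seen.

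Sites were searched in the R64 RefSeq genome. The length that counts and TPM imply was within 5% of the annotation for 5117 of 5361 genes (95.4%). Alternatives were DESeq2 1.42.0 size factors, no filter, DESeq2's Wald test, the replicate block, a fit of the compared groups alone, limma 3.58.1 on log2(TPM + 1), and leaving out single libraries or a replicate number. The test of LiCl against control medium in WT was checked on simulated counts. These held no replicate effect, so the check does not cover the pairing of same-numbered libraries.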

Additional observations from a re-analysis of the deposited data

How the results depend on the processing

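The 41 member values and 24 counts were recomputed under each alternative. The 41 were all member values for LiCl in each strain, and those between strains that passed with or without the replicate block. Values between strains that passed in neither fit, and the differences between responses, are thus not among them. The gains with the block follow in part from this choice. DESeq2's size factors kept the side of the threshold of all 41 values, no filter of 40, limma on TPM of 37 (3 gained, and *HIS7* in *hcm1-3N* in LiCl lost its call), DESeq2's Wald test of 34 (7 gained), the replicate block of 28 (13 gained) and the fit of the compared groups alone of 27 (13 lost, 1 gained). Such a fit uses fewer libraries for the spread. The cause of these gains and losses was not tested. With replicate 1 left out of all groups, 9 values gained a call and 1 lost it. Calls were lost for 21 values without replicate 2 and for 18 without replicate 3. Directions turned in uncalled values only. Leaving out libraries or a replicate number moved *HIS3* for LiCl in WT between -0.019 (without replicate 1) and 0.15, *HIS6* there between -0.0057 (without WT LiCl replicate 1) and 0.36, and *HIS6* in *hcm1-8E* between -0.11 (without LiCl replicate 1) and 0.25, with -0.063 without replicate 1 of all groups.

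Members called moved to 7 with the replicate block for WT against *hcm1-3N* in control medium, to 2 with the block or the Wald test for WT against *hcm1-8E* there, and to 4 with the block or 2 with the Wald test for *hcm1-3N* against *hcm1-8E* there. With the compared groups alone they moved to 0 for *hcm1-3N* in LiCl, and in LiCl for WT and for *hcm1-8E* against *hcm1-3N*. The Wald test called 1 for the response of *hcm1-3N* minus WT and 2 for *hcm1-8E* minus WT. Leaving out libraries or a replicate number gave 1 to 4 members for LiCl in WT, 0 to 6 in *hcm1-3N* and 2 to 6 in *hcm1-8E*. For WT against *hcm1-3N*, WT against *hcm1-8E* and *hcm1-3N* against *hcm1-8E* it gave 0 to 7, 0 to 1 and 0 to 4 in control medium and 0 to 1, 0 to 1 and 0 to 4 in LiCl, and 0 to 2 for the response of *hcm1-8E* minus WT.

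Over all genes, the calls for LiCl in WT, *hcm1-3N* and *hcm1-8E* were 1897, 645 and 1842, and 3056, 2375 and 3004 with the replicate block. The Wald test called 1183 in *hcm1-3N*, and the compared groups alone gave 19 in *hcm1-3N* and 1081 in *hcm1-8E*. Leaving out libraries or a replicate number gave 238 to 2998, 0 to 1949 and 95 to 2953. In control medium WT against *hcm1-3N* went from 479 to 1403 (block) and 823 (Wald), WT against *hcm1-8E* from 4 to 99, 155 and 1 (groups alone), and *hcm1-3N* against *hcm1-8E* from 4 to 233, 119 and 0, with 0 to 1113, 0 to 135 and 0 to 692 without libraries or a replicate number. In LiCl, in the same order, 45 went to 190, 156 and 0, 2 to 19, 16, 0 and 4 (TPM), and 191 to 530, 365, 0 and 301 (TPM), with 0 to 117, 0 to 149 and 0 to 865. For the response of *hcm1-3N* minus WT the block called 40 and the Wald test 130, for *hcm1-8E* minus WT 21 and 83, with 1 under DESeq2's size factors, and for *hcm1-3N* minus *hcm1-8E* 12 and 46, with 13 on TPM. Leaving out libraries or a replicate number gave 0 to 21, 0 to 368 and 0 to 584. Without replicate 2, or without replicate 3, in all groups, 0 genes of the genome passed in the strain comparisons and for LiCl in *hcm1-3N*. The highest counts of those comparisons came without replicate 1 in all groups. With 3 cultures a group, a member that did not pass is not shown to be unchanged.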
